A study of Mus musculus with 6 samples.

Results

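The genes described here build, fill and anchor the cilium: the 46 listed genes whose symbols are Ift, Bbs, Tctn, Cep or Spag followed by a number, out of 13003 genes listed for mouse heart. They were chosen by symbol, with earlier results of these data known. They comprise 12 Ift genes, 8 Bbs genes, 3 Tctn genes, 18 Cep genes and 5 Spag genes. The rule also asked for Dnah genes, the axonemal dynein heavy chains, and found 0, since the files write these genes with the older Dnahc symbols.

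RNA-seq was carried out on ventricular myocardium of 3 homozygous Dst-b mutant mice (replicates 1, 2 and 3) and 3 WT mice (replicates 1, 3 and 4), all 14 to 19 months old. The mutants, bred from heterozygotes on a C57BL/6J line, carried on both alleles a constitutive nonsense mutation that was introduced with CRISPR-Cas9 into an exon used by the muscle isoform of dystonin, a cytoskeletal linker protein. WT mice carried neither copy of it. The sex of the mouse behind each library was not given, and whether mice of the same number shared a litter or a day was not stated either. The paper reports the use of males and females, without stating their balance between these libraries. It set aside Xist, Tsix and Bmp10, whose differences it put down to extreme values in 1 individual.

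A primary cilium is a single antenna that many cell types grow from the older centriole of the centrosome when they leave the cell cycle. Intraflagellar transport (IFT) carries material along its microtubule core: the IFT-B complex with kinesin motors towards the tip, and the IFT-A complex with a dynein motor back to the base. The BBSome, a coat-like complex named after Bardet-Biedl syndrome, takes membrane proteins out of the cilium, the tectonics sit in the transition zone that gates its base, and many centrosomal (Cep) proteins build the centriole that the cilium grows from. In the developing heart cilia are known for left-right patterning and for the formation of valves and septa, and mutations in several of these genes cause congenital heart defects.

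Depth was 40693854 to 57580110 tags per library. All 46 members passed the filter on low counts, as did 12955 of 13003 genes, and the lowest count of a member in any library was 31 tags. For the filter, 3 or more of the 6 libraries had to reach 1 CPM, the count scaled to library size alone. All CPM values given here were scaled to library size with TMM factors. Counts of Dst, summed over isoforms that the allele does and does not affect and therefore no check of the labels, averaged 430 ± 24.1 CPM in Dst-b mutant hearts and 448 ± 25.2 CPM in WT hearts (SD, n = 3 each). The libraries showed the markers of ventricular myocardium, with Myl2 between 19015 and 22135 CPM. WT replicate 3 stood apart in markers of the mesothelium that covers the heart: the summed CPM of 7 mesothelial markers was 82.6 there, against 21.3 to 33.9 in the mutant libraries and 26.7 and 44.7 in the other WT libraries. The summed CPM of 6 atrial markers, most of it Nppa in the mutant libraries, was 942, 1052 and 907 in mutant replicates 1, 2 and 3, against 243, 1133 and 288 in WT replicates 1, 3 and 4. Of 9 markers of airway or multiciliated cells, Foxj1 and Tekt1 among them, 0 were listed in the files.

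A gene was called where edgeR's quasi-likelihood test gave p below 0.01 with an adjusted p below 0.1, the adjustment running over all 12955 genes. Of the 46 members 2 were called higher in Dst-b mutant hearts, Ift74 and Cep110, and 0 were called lower. The study names both from these same libraries. The 2 calls are 4.35% of the members, whereas 4.64% of all genes tested were called in either direction, 2.8% higher and 1.84% lower. The share of members called was therefore close to the background. By edgeR 8 members had an unadjusted p under 0.05, all 8 with a positive fold change, against a background of 16.5% of genes in either direction and 8.7% with a positive and 7.85% with a negative change.

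Ift74, on chromosome 4 (GRCm38, 94603266 to 94693233, Entrez 67694), encodes an IFT-B core protein that forms with Ift81 a pair binding tubulin. It had 16.8, 13.95 and 14.2 CPM in Dst-b mutant replicates 1, 2 and 3, against 9.61, 9.86 and 9.70 CPM in WT replicates 1, 3 and 4. The 3 WT libraries lay close together, all 3 mutant libraries lay above them, and mutant replicate 1 was the highest. The log2 fold change was 0.62 ± 0.11 (SE, adjusted p = 0.0189, edgeR's quasi-likelihood test). Without mutant replicate 1 it was 0.53 with an adjusted p of 0.11 by the same edgeR test, which no longer met the call.

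Cep110, on chromosome 2 (35109476 to 35178822, Entrez 26920), is now called Cntrl and encodes centriolin, a protein of the subdistal appendages of the mother centriole that also takes part in cytokinesis. It is a different gene from the one for the centriole cap protein CP110. It had 31.1, 34.0 and 32.4 CPM in mutant replicates 1, 2 and 3, against 24.7, 23.6 and 21.6 CPM in WT replicates 1, 3 and 4. The groups did not overlap. The log2 fold change was 0.48 ± 0.08 (SE, adjusted p = 0.0177, edgeR), and the gene was also called in each of the 6 fits that left out 1 library, with fold changes of 0.425 to 0.524 on the log2 scale.

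**Figure D1:**
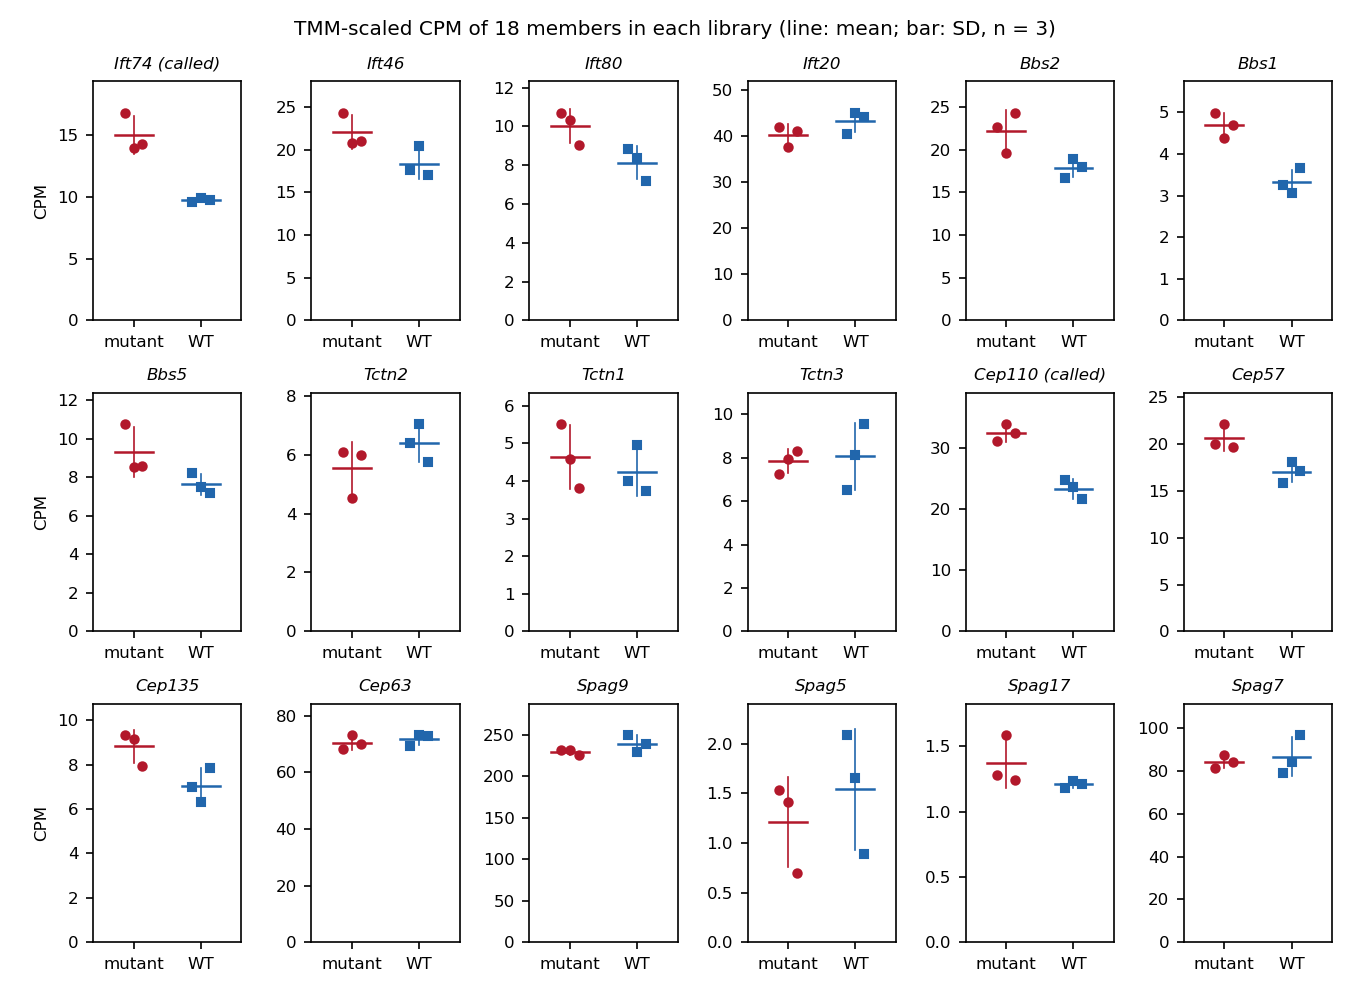
TMM-scaled CPM of 18 of the members whose values in every library are given, with 3 Dst-b mutant libraries (circles) left of 3 WT libraries (squares), a line at each mean and a bar of 1 SD; axes start at 0. Ift74 and Cep110 are called, with mutant libraries at 13.95 to 16.8 and 31.1 to 34.0 CPM, all above the WT libraries.

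The stretches of DNA before the starts of these 2 genes are shown because they are the members that were called. Each is the 250 bases before 1 annotated start in the RefSeq table for GRCm38.p6, read in the direction of the gene, and capitals mark CCAAT boxes (CCAAT) and the left part of the X-box (GTTGCC) on either strand. The X-box is the motif bound by RFX transcription factors, which switch on many genes of the cilium. The Ift74 stretch is chr4:94614241-94614490 on the plus strand and lies within the annotated span of the gene, and the Cep110 stretch is chr2:35109242-35109491 on the plus strand, before 1 of 4 annotated starts.
Ift74: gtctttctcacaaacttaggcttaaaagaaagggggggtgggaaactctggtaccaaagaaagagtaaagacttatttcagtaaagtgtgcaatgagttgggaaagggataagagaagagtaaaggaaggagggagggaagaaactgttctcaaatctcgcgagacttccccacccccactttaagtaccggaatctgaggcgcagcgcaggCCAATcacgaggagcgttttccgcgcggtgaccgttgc
Cep110: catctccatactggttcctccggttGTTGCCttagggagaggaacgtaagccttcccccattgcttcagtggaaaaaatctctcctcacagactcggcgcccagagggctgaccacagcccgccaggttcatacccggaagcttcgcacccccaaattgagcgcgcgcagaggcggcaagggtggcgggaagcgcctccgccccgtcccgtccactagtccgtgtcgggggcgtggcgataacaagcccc

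The Ift74 stretch held 1 CCAAT box and the Cep110 stretch 1 GTTGCC. Neither held an X-box, which reads GTTNCC, then 2 bases of any kind, then GGNAAC, with N for any base: the nearest run of 14 bases differed from it at 3 of its 10 fixed letters in both stretches. A match or its lack describes the letters of these windows and nothing about binding.

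Of the 46 members 38 had a window in the RefSeq table (250 bases before to 50 bases after a start). The X-box stood on either strand in a window of 2 of these 38 members, 5.26%, against 0.631% of 10298 tested genes with a window. With at most 1 mismatch it was found for 7 members, 18.4%, against 3.52% of the tested genes. GTTGCC alone, which is also the start of many X-boxes, was in a window of 15 members (39.5%, against 14.8%), CCAAT of 23 members (60.5%, against 42.5%) and the GC box GGGCGG of 23 members (60.5%, against 68.2%). The 7 matches, with the bases beside them and the 14 bases of the match in capitals, are read in the direction of each gene. In GRCm38 they lie at chr3:36613489-36613518 (Bbs7, minus strand), chr5:122264411-122264432 (Tctn1, minus), chr19:4906605-4906634 (Bbs1, minus), chr9:59353464-59353493 (Bbs4, minus), chr16:49699199-49699228 (Ift57, plus), chr11:78301397-78301426 (Spag5, plus) and chr5:124598679-124598708 (Tctn2, plus). They are shown to let the members' X-boxes be set side by side.
Bbs7: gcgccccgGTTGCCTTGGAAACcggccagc
Tctn1: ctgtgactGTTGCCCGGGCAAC
Bbs1: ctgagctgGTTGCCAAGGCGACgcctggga
Bbs4: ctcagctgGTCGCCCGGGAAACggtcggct
Ift57: cgggtctgGTTGCCGTGGTGACcggctgcc
Spag5: ctcactcgGTAACCGGGGGAACggagccac
Tctn2: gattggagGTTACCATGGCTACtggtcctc

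The matches of Bbs7 and Tctn1 have no mismatch and the other 5 have 1. None of these 7 members was called. Their log2 fold changes lay on both sides of 0: 0.50 ± 0.17 (SE) for Bbs1, 0.14 ± 0.20 for Tctn1, 0.13 ± 0.11 for Bbs7, 0.02 ± 0.10 for Ift57, 0.01 ± 0.18 for Bbs4, -0.21 ± 0.17 for Tctn2 and -0.34 ± 0.38 for Spag5.

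Among the members as a whole 31 had a positive and 15 a negative log2 fold change, and the median was 0.09, against 0.00 over all genes tested, of which 50% were positive. In 12 members all 3 mutant libraries lay above all 3 WT libraries, in 0 members below, and in 34 the groups overlapped. The background was 21.9% of genes without overlap, 11.4% with the mutant higher and 10.5% with the mutant lower. The 12 were Ift74, Ift46, Ift80, Ift172, Bbs1, Bbs2, Bbs5, Cep110, Cep57, Cep135, Cep350 and Spag17. The median moved with single libraries, being 0.03 without mutant replicate 1 and 0.06 without WT replicate 3. Summed over all members, the level was 1121, 1115 and 1105 CPM in mutant replicates 1, 2 and 3, against 1094, 1088 and 1087 CPM in WT replicates 1, 3 and 4, a sum to which Spag9 alone gave 225 to 250 CPM.

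**Figure D2:**
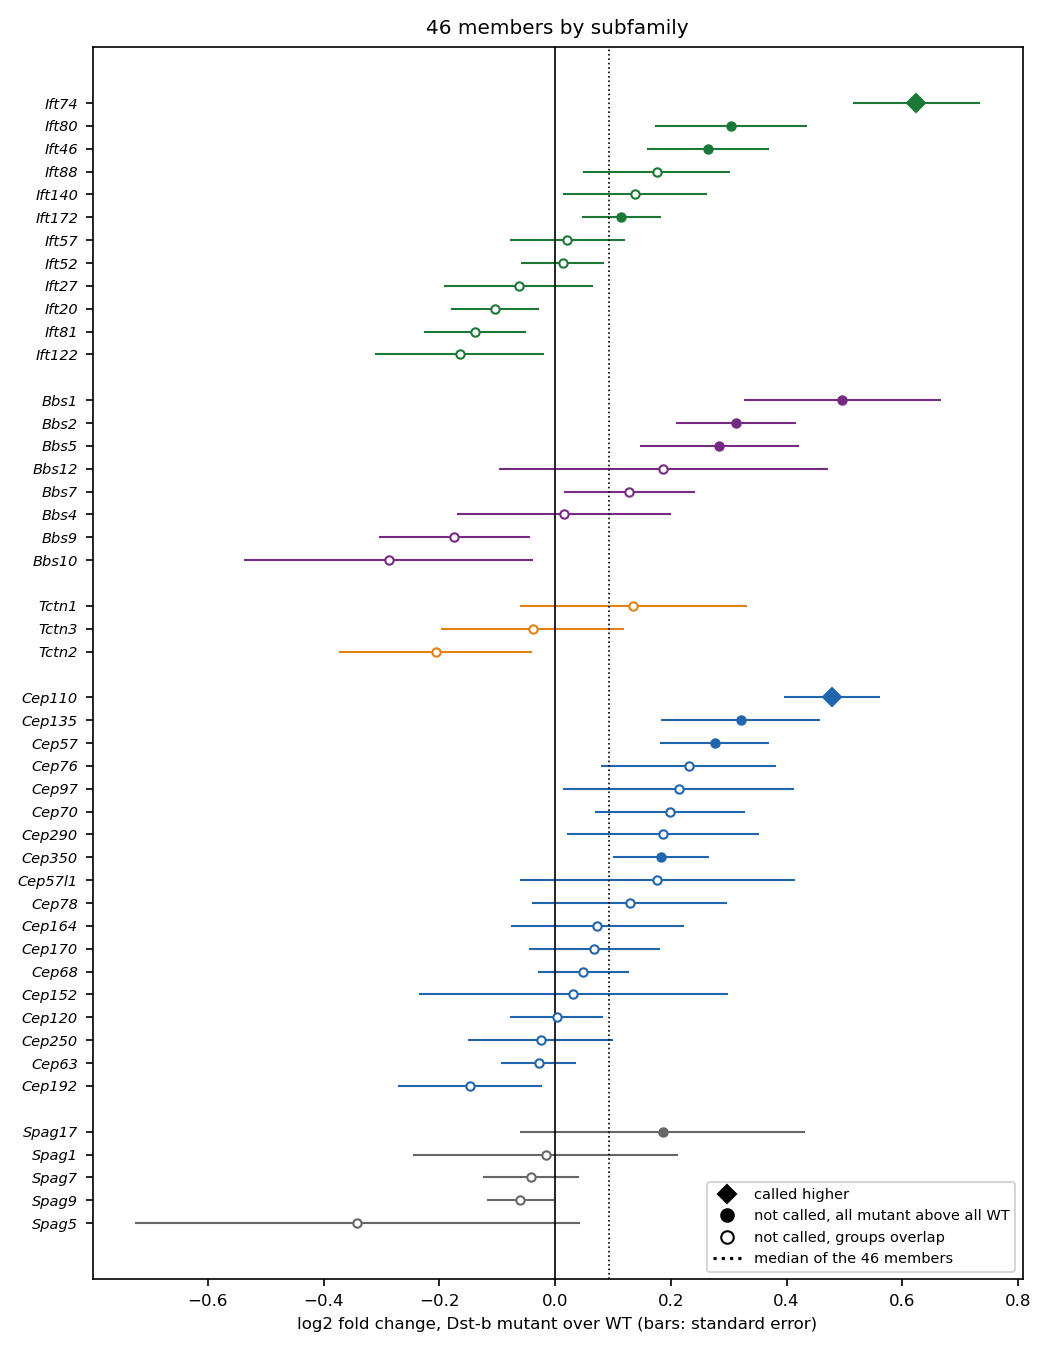
Log2 fold change of each of the 46 members, Dst-b mutant over WT, with bars of 1 standard error from the edgeR fit, sorted within subfamily. Diamonds mark the 2 called members, filled circles the other 10 in which every mutant library exceeded every WT library, and the dotted line the median of 0.09.

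The fold changes of the IFT genes were mixed. Of the 12 members, 8 had a positive and 4 a negative fold change, with a median of 0.07 on the log2 scale, 1 was called, and 4 had no overlap between the groups. The IFT-B core gene Ift46 had 24.3, 20.8 and 21.0 CPM in mutant replicates 1, 2 and 3, against 17.6, 20.4 and 17.0 CPM in WT replicates 1, 3 and 4. WT replicate 3 came close to the lowest mutant library without reaching it, and the log2 fold change of 0.26 ± 0.10 (SE, adjusted p = 0.242, edgeR) was not called.

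Ift80, an IFT-B protein whose gene is mutated in a human skeletal ciliopathy, had 10.7, 10.3 and 9.06 CPM in mutant libraries, against 8.82, 8.38 and 7.17 CPM in WT libraries. The gap between the lowest mutant and the highest WT library was small, and the log2 fold change was 0.30 ± 0.13 (SE, adjusted p = 0.278, edgeR). Ift172, the largest IFT-B subunit, had 60.1, 61.0 and 66.2 CPM in mutant libraries, against 58.6, 58.3 and 56.1 CPM in WT libraries. Its groups did not overlap either, at a log2 fold change of only 0.11 ± 0.07 (SE, adjusted p = 0.438, edgeR).

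Ift20, which also works at the Golgi and is the most abundant IFT member per length, had 41.9, 37.6 and 41.1 CPM in mutant libraries, against 40.4, 45.0 and 44.2 CPM in WT libraries. The groups overlapped and its log2 fold change was -0.10 ± 0.08 (SE, adjusted p = 0.545, edgeR). Ift81, the partner of Ift74, had 77.5, 87.7 and 84.0 CPM in mutant libraries, against 82.7, 102 and 89.4 CPM in WT libraries. Its groups overlapped too, with a log2 fold change of -0.14 ± 0.09 (SE, adjusted p = 0.476, edgeR), so that the fold changes of the 2 partners had opposite signs.

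Per length, in RPKM (tags scaled to exon length and library total), the ratio of Ift74 to Ift81 was 0.317, 0.232 and 0.247 in mutant replicates 1, 2 and 3, against 0.170, 0.141 and 0.159 in WT replicates 1, 3 and 4. The ratio was thus higher in every mutant library than in any WT library, a difference that repeats the call of Ift74 and is not a further test. Ift81 was the more abundant of the 2 in every library, at a mean of 28.2 RPKM against 5.85 RPKM for Ift74. It lies 38039 bases from Atp2a2, which encodes the calcium pump of the sarcoplasmic reticulum and stood at 2407 RPKM with a log2 fold change of -0.14 ± 0.06 (SE, adjusted p = 0.295, edgeR); whether reads of that gene reach Ift81 was not tested.

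The other core genes Ift52, Ift88 and Ift27, the last a small GTPase, had log2 fold changes of 0.01, 0.18 and -0.06, and the peripheral gene Ift57 had 0.02. The IFT-A genes Ift140 and Ift122 had 0.14 and -0.16. None of these 6 was called and in each the groups overlapped.

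Among the 8 Bbs genes none was called, 6 had a positive fold change and the median was 0.16 on the log2 scale. The 3 with no overlap were all subunits of the BBSome. Bbs2 had 22.6, 19.6 and 24.3 CPM in mutant replicates 1, 2 and 3, against 16.7, 18.95 and 17.9 CPM in WT replicates 1, 3 and 4. Its log2 fold change was 0.31 ± 0.10 (SE, adjusted p = 0.170, edgeR). Leaving out mutant replicate 2, the lowest of the 3, gave 0.39 with an adjusted p of 0.0999 by edgeR, which met the call. Leaving out any other library gave an adjusted p of 0.188 to 0.427 by edgeR, which did not.

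Bbs1, the subunit that binds the membrane GTPase Arl6 and in which a common human mutation causes the syndrome, had 4.99, 4.39 and 4.69 CPM in mutant libraries, against 3.26, 3.06 and 3.65 CPM in WT libraries. The groups did not overlap at this low level, and the log2 fold change of 0.50 ± 0.17 (SE, adjusted p = 0.182, edgeR) was the second highest of the members and was not called. Bbs5, a subunit that binds phosphoinositides, had 10.8, 8.56 and 8.58 CPM in mutant libraries, against 8.22, 7.49 and 7.20 CPM in WT libraries. Mutant replicate 1 was well above the other libraries, and the log2 fold change was 0.28 ± 0.14 (SE, adjusted p = 0.341, edgeR).

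The other BBSome subunits Bbs7, Bbs4 and Bbs9 had log2 fold changes of 0.13, 0.01 and -0.17, and Bbs12 and Bbs10, chaperonin-like proteins that help to assemble the complex, had 0.19 and -0.29. The groups overlapped in these 5 genes. Summed over the 8 Bbs genes the level was 77.8, 66.2 and 76.4 CPM in mutant libraries, against 64.1, 66.3 and 70.3 CPM in WT libraries, and mutant replicate 2 lay among the WT libraries.

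None of the 3 tectonic genes was called. Tctn1 had 5.53, 4.58 and 3.82 CPM in mutant replicates 1, 2 and 3, against 4.003, 4.95 and 3.74 CPM in WT replicates 1, 3 and 4 (log2 fold change 0.14 ± 0.20 SE, adjusted p = 0.789, edgeR). Tctn2 had 6.10, 4.54 and 6.002 CPM in mutant libraries, against 6.39, 7.05 and 5.75 CPM in WT libraries (-0.21 ± 0.17 SE, adjusted p = 0.590, edgeR). Tctn3 had 7.25, 7.96 and 8.32 CPM in mutant libraries, against 6.50, 8.13 and 9.57 CPM in WT libraries (-0.04 ± 0.16 SE, adjusted p = 0.935, edgeR). The groups overlapped in all 3, and the signs of Tctn1 and Tctn3 turned when single libraries were left out.

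Most of the 18 Cep genes had somewhat higher means in the mutant hearts, 15 with a positive and 3 with a negative fold change and a median of 0.15 on the log2 scale, although only Cep110 was called. Summed over the 18 genes the level was 372, 373 and 361 CPM in mutant replicates 1, 2 and 3, against 354, 338 and 336 CPM in WT replicates 1, 3 and 4. The mutant sums were all above the WT sums, with Cep110 contributing to the gap; no test was made of a sum.

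Of 9 Cep genes for the building and duplication of centrioles, 7 had a positive fold change and 2 did not overlap between the groups. Cep57, a protein of the pericentriolar material that helps to anchor microtubules, had 20.0, 22.2 and 19.7 CPM in mutant libraries, against 15.9, 18.1 and 17.2 CPM in WT libraries. Its log2 fold change was 0.28 ± 0.09 (SE, adjusted p = 0.182, edgeR), and its span overlaps those of Mtmr2 and Fam76b. Cep135, a protein of the centriole's core, had 9.34, 9.15 and 7.94 CPM in mutant libraries, against 6.99, 6.31 and 7.87 CPM in WT libraries. Mutant replicate 3 and WT replicate 4 nearly met, and the log2 fold change was 0.32 ± 0.14 (SE, adjusted p = 0.277, edgeR).

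Cep63, which with Cep152 forms a ring around the parent centriole and is the most abundant Cep member per length, had 68.2, 73.2 and 70.0 CPM in mutant libraries, against 69.4, 73.3 and 73.0 CPM in WT libraries. The groups overlapped at a log2 fold change of -0.03 ± 0.06 (SE, adjusted p = 0.871, edgeR). Its partner Cep152 had 0.03 ± 0.27, and Cep192, a scaffold of the pericentriolar material, had the lowest value of the Cep genes, -0.15 ± 0.12. The remaining genes of this group lay between 0.00 for Cep120, which acts in centriole elongation, and 0.23 for Cep76, which limits repeated duplication.

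Of 6 Cep genes of the appendages, the linker between centrioles and the cilium base, 5 had a positive fold change, but apart from Cep110 all 5 overlapped between the groups. Cep290, a large protein of the transition zone, had a log2 fold change of 0.19 ± 0.17 (SE), Cep164 of the distal appendages 0.07 ± 0.15, Cep170 of the subdistal appendages 0.07 ± 0.11, and the linker genes Cep68 and Cep250 0.05 ± 0.08 and -0.02 ± 0.13. Cep110 thus stood apart in value from the other appendage genes, a difference between genes that was not itself tested. Cep350, Cep70 and Cep78 had 0.18, 0.20 and 0.13, and of these only Cep350 had no overlap, with 34.7, 36.5 and 37.3 CPM in mutant libraries against 33.8, 28.7 and 33.0 CPM in WT libraries.

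The 5 Spag genes share a name, sperm-associated antigen, rather than a complex. None was called, 4 had a negative fold change and the median was -0.04 on the log2 scale. Spag17, a protein of the central pair of motile cilia, had 1.28, 1.59 and 1.24 CPM in mutant libraries, against 1.18, 1.23 and 1.21 CPM in WT libraries. Only a narrow gap parted these groups, and the log2 fold change of 0.19 ± 0.25 (SE, adjusted p = 0.766, edgeR) was within its error.

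Spag5, the mitotic spindle protein astrin, had 1.54, 1.42 and 0.698 CPM in mutant libraries, against 2.09, 1.65 and 0.886 CPM in WT libraries. Its libraries varied more than 2-fold within each genotype (log2 fold change -0.34 ± 0.38 SE, adjusted p = 0.717, edgeR). Spag9, a scaffold that ties kinases and motor proteins together, had 231, 232 and 225 CPM in mutant libraries, against 250, 229 and 238 CPM in WT libraries (-0.06 ± 0.06 SE, adjusted p = 0.660, edgeR). Spag7 had 81.4, 87.2 and 83.9 CPM in mutant libraries, against 79.1, 83.9 and 96.8 CPM in WT libraries (-0.04 ± 0.08 SE, adjusted p = 0.852, edgeR). Spag1, needed for the assembly of dynein arms, had -0.02 ± 0.23.

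Levels per length differed far more between members than between genotypes. The mean over 6 libraries ran from 0.164 RPKM for Spag17 to 77.2 RPKM for Spag7, with a median of 2.62 RPKM, against 5.94 RPKM over all genes tested, and 9 members were under 1 RPKM while 7 reached at least 10 RPKM. The 7 were Spag7, Ift20 (35.1 RPKM), Ift81 (28.2 RPKM), Spag9 (17.5 RPKM), Ift52 (13.5 RPKM), Ift172 (11.9 RPKM) and Cep63 (10.9 RPKM). Within 1 complex levels were uneven as well. Among BBSome subunits the mean RPKM ran from 0.540 for Bbs1 to 6.79 for Bbs2, and within IFT-B from 1.72 for Ift80 to 35.1 for Ift20.

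**Figure D3:**
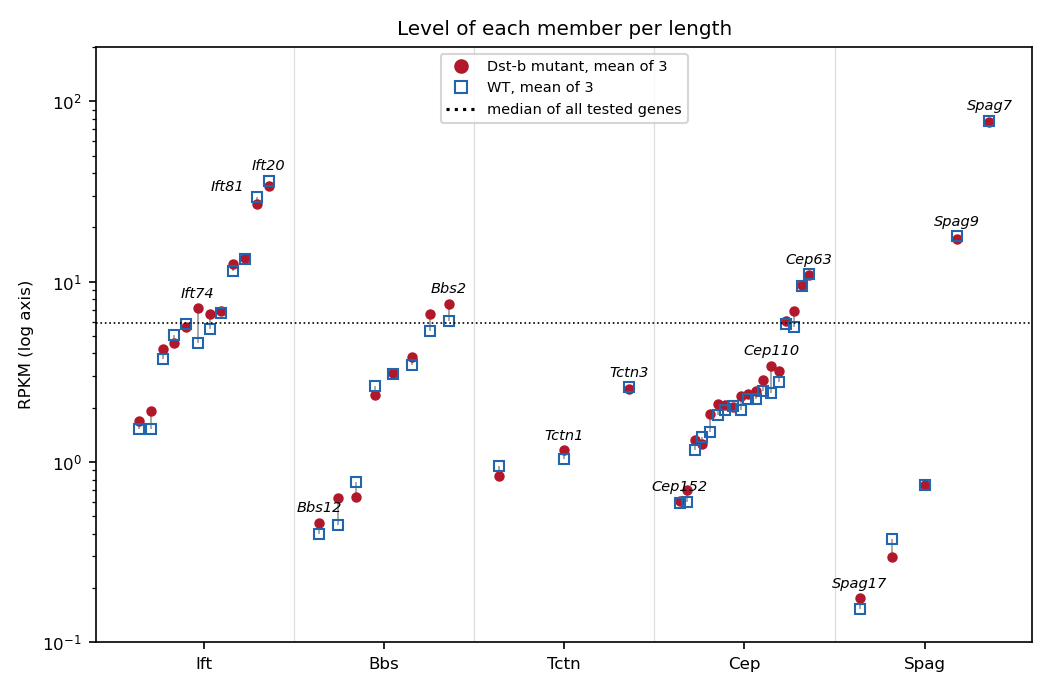
Mean RPKM (log axis) of each member in 3 Dst-b mutant libraries (filled circles) and 3 WT libraries (open squares), joined by a line and sorted by level within subfamily. The dotted line is the median of all genes tested, 5.94 RPKM; members run from 0.164 RPKM (Spag17) to 77.2 RPKM (Spag7), and the 2 marks of a member mostly touch.

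Related genes that do not carry these symbols were counted in lists written from general knowledge, with the earlier results in view. Of 11 IFT subunits under other symbols none was called in either direction, 9 had a positive fold change and the median was 0.16 on the log2 scale. Cluap1, an IFT-B protein, had 25.9, 25.1 and 25.8 CPM in mutant libraries, against 20.5, 23.0 and 21.4 CPM in WT libraries (log2 fold change 0.25 ± 0.08 SE, adjusted p = 0.166, edgeR). Of 12 genes of the IFT motors none was called (median 0.04), and none of 10 BBSome partners (median 0.02). Of 19 transition zone genes 1 was called higher and 0 lower (median 0.15): Rpgrip1l, a scaffold of that zone, had 10.2, 7.48 and 8.93 CPM in mutant libraries, against 4.53, 6.93 and 3.95 CPM in WT libraries (0.79 ± 0.21 SE, adjusted p = 0.0930, edgeR). The study names this gene from these libraries too. Of the fits that left out 1 library, it was called only without mutant replicate 2 and without WT replicate 3.

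The largest changes of the related lists were among genes of the axoneme and of motile cilia, of which 20 of 62 were listed and tested. In this list 7 were called higher and 0 lower, and the log2 fold changes had a median of 0.36. The study itself named 6 of these 20 from the same libraries, 5 of them among the 7 called, so that the count is no independent evidence of a direction. The count fell to 3 without mutant replicate 1, to 4 without mutant replicate 3 and to 4 without WT replicate 1. Rp1, which organises the axoneme of photoreceptors, had 5.33, 7.31 and 6.07 CPM in mutant libraries, against 0.200, 0.912 and 0.411 CPM in WT libraries (log2 fold change 3.67 ± 0.41 SE, adjusted p = 0.00180, edgeR). Its WT libraries were all under 1 CPM, so Rp1 passed the filter on low counts through its mutant libraries alone. A gene that entered in this way could not have been called lower.

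Rfx2, one of the RFX factors that bind the X-box, had 10.2, 9.89 and 8.93 CPM in mutant libraries, against 4.79, 3.80 and 3.85 CPM in WT libraries (1.22 ± 0.15 SE, adjusted p = 0.00282, edgeR).

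The dynein heavy chains, which the rule sought as Dnah, were listed as Dnahc7b, Dnahc2 and Dnahc17. Dnahc7b had 2.45, 3.52 and 2.38 CPM in mutant libraries, against 1.09, 0.863 and 1.04 CPM in WT libraries (1.48 ± 0.26 SE, adjusted p = 0.0189, edgeR). It has close copies in the genome, and how reads were shared between them was not stated. Dnahc2 and Dnahc17 had log2 fold changes of -0.12 ± 0.35 and -0.06 ± 0.25 (SE) and were not called, and all 3 were under 0.3 RPKM on average.

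**Figure D4:**
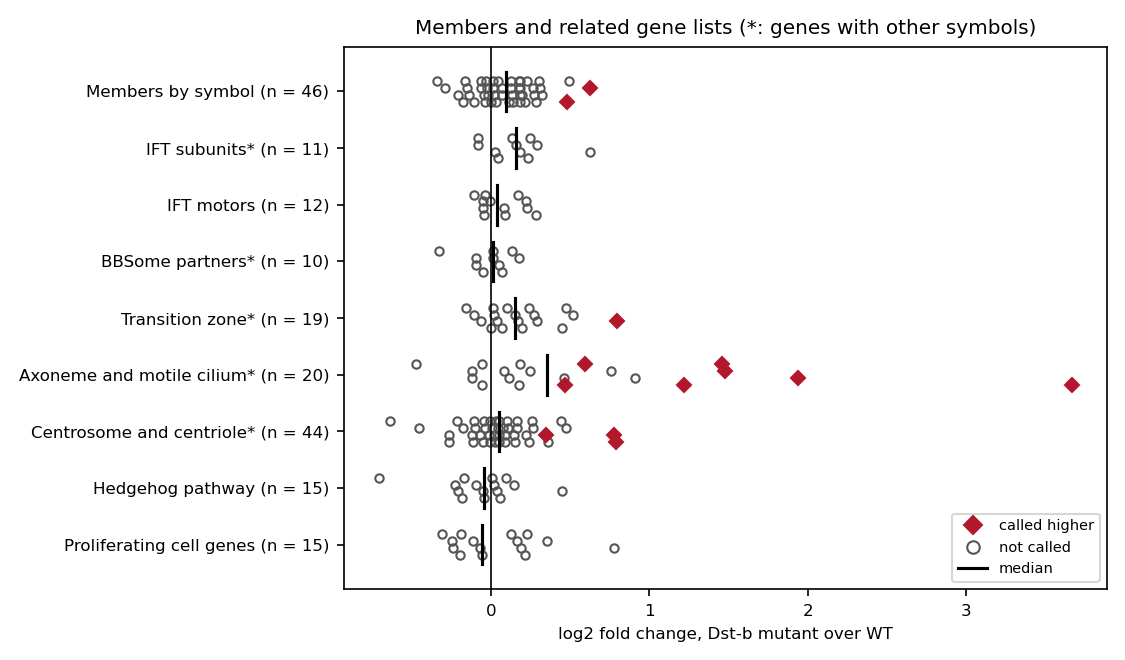
Log2 fold change, Dst-b mutant over WT, of the 46 members (top) and of the tested genes of 8 related lists, with called genes as diamonds and the median of each list as a vertical line. The members hold 2 called genes and the axoneme list 7, the farthest being Rp1 at 3.67. Rp1 passed the filter on low counts through its mutant libraries alone. No gene of these lists was called lower.

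Of 44 other genes of the centrosome and centriole 3 were called higher and 0 lower, with a median of 0.05, and the study named all 3. Pcnt, the scaffold pericentrin, had 109, 115 and 122 CPM in mutant libraries, against 94.1, 94.1 and 84.1 CPM in WT libraries (0.35 ± 0.07 SE, adjusted p = 0.0385, edgeR). Haus8, a subunit of the augmin complex that seeds spindle microtubules, had 49.2, 36.1 and 38.9 CPM in mutant libraries, against 25.7, 23.9 and 22.7 CPM in WT libraries (0.78 ± 0.12 SE, adjusted p = 0.00932, edgeR). Lrrcc1, a centriole protein, had 52.3, 34.7 and 37.6 CPM in mutant libraries, against 23.3, 24.9 and 23.7 CPM in WT libraries (0.79 ± 0.14 SE, adjusted p = 0.0178, edgeR). Mutant replicate 1 was the highest library for Haus8 and Lrrcc1, as it was for Ift74.

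Among 15 tested genes of Hedgehog signalling, the pathway that vertebrate cells read through the primary cilium, none was called in either direction and the median was -0.04. Among 15 tested genes of proliferating cells, where centrosome genes are also used, none was called and the median was -0.05. The 16 listed genes of this list, Ccnb1 being untested, had summed levels of 52.0, 71.6 and 42.9 CPM in mutant libraries, against 78.3, 43.9 and 37.1 CPM in WT libraries. These sums overlapped between the genotypes.

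Markers of some cell types moved along with the genotype. Of 6 pericyte markers 5 were called lower (Kcnj8, Rgs5, Pdgfrb, Notch3 and Abcc9), with sums of 606 to 728 CPM in mutant libraries, against 821 to 900 CPM in WT libraries. Of 8 endothelial markers 2 were called lower (Egfl7 and Tie1), with sums of 1025 to 1150 CPM in mutant libraries, against 1141 to 1292 CPM in WT libraries. These endothelial sums overlapped between the genotypes, although all 8 markers had a negative fold change, with a median of -0.19 on the log2 scale. Among the called cell type markers, the study named all but Rgs5 from the same libraries, so that these counts are no independent evidence. Single markers of fibroblasts (Col1a1, of 8), of smooth muscle (Acta2, of 5) and of cardiomyocytes (Actc1, of 8) were called higher, while the lists as a whole had medians near 0 for smooth muscle (-0.04, 1 of 5 positive) and cardiomyocytes (0.01, 4 of 8 positive) and of 0.19 for fibroblasts (6 of 8 positive). The smooth muscle sums were 427 to 524 CPM in mutant libraries, against 368 to 383 CPM in WT libraries, without overlap. The fibroblast and cardiomyocyte sums overlapped between the genotypes. In such whole tissue, fewer cells of a type and less RNA per cell cannot be told apart, and the part of these shifts in the values of Ift74 and Cep110 was not tested. Without WT replicate 3, the library with the highest mesothelial sum, Ift74 and Cep110 had log2 fold changes of 0.63 and 0.48 and both were called.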

How the data were processed

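The authors prepared poly-A libraries (a TruSeq protocol in the methods, the NEBNext Ultra II Directional kit per the labels), mapped paired reads with OLego (genome GRCm38/mm10) and used Quantas for quantification. The deposited estimated count of tags per gene was rounded where not whole and used for all tests. The deposited RPKM served only to compare levels between genes, and the deposited exon length was used as given. What 1 tag stands for (a read or a pair) and any use of strand are not given in the sources used here. Of the 46 members 8 overlap another listed gene: Cep57, Cep63, Cep290, Ift122, Ift140, Spag1, Spag17 and Tctn1.

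Genes reaching 1 CPM in 3 or more of the 6 libraries were tested with edgeR 4.0.16 in R 4.3.3 (TMM scaling, quasi-likelihood, genotype as the only term, two-sided). The Benjamini-Hochberg adjustment ran over all 12955 of them, and standard errors came from the same fit. Tests measure the spread between these mice, which were not stated to be independent in litter or batch. On simulated data of 12955 genes the recovery was 63% for 1.5-fold and 98% for 3-fold changes, and 27 unchanged genes were called. In it 100 genes were changed at each fold, drawn from all genes tested. The members had a lower median level than all genes, so these shares are not the recovery for the members.

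The members and lists were chosen with earlier results of these data known. Values in every library are given for called members and, in each subfamily, for the 3 smallest p values and the highest mean RPKM; Ift81, Ift172 and Cep350 were added with their values known, and so were the named cell type markers. From each list at most 4 called genes were named, or some of the 2 with the smallest p. The values of 1 further called gene of the axoneme list are not reported here. Positions and sequences are from RefSeq GRCm38.p6, to which all 46 members matched by Entrez identifier; Ift81, Spag1, Ift80, Cep192, Cep350, Ift122, Cep120 and Cep76 had no window. Alternatives were other scaling, filters, thresholds and tests (DESeq2 1.42.0, edgeR's exact test, limma 3.58.1 with pseudocounts of 0.5 and 1), a replicate block and leaving out each library. Tables and plots used Python 3.11.15, pandas 2.3.3 and matplotlib 3.10.9.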

Additional observations from a re-analysis of the deposited data

How the results depend on the processing

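Ift74 and Cep110 were the 2 members called higher, and 0 were called lower, under median-of-ratios scaling, no filter, a filter at a mean CPM of 5, DESeq2, edgeR's exact test, limma with either pseudocount, an adjusted p under 0.05 and a p under 0.001. Over all genes the count of calls was 601 as reported, 1028 with DESeq2, 304 at an adjusted p under 0.05, 280 at a p under 0.001 and 966 with the replicate block. The replicate block in effect compared only replicates 1 and 3 of each genotype. Leaving out 1 library at a time gave 1 to 3 members called higher (1 without mutant replicate 1, where 163 genes were called in all, and 3 without mutant replicate 2), 0 called lower, and a median log2 fold change of the members of 0.028 to 0.112. Other settings gave medians of 0.0713 to 0.099.

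Only numbers 1 and 3 were shared between the genotypes, and libraries of the same number did not deviate together (correlations of 0.00724 and -0.0492). Pairs of different numbers gave correlations of -0.091 to 0.114. So few pairs cannot decide whether mice of the same number shared a litter or a day, and the main fit used no pairing. In the replicate block, mutant replicate 2 and WT replicate 4 had no library of the same number in the other genotype. The genotype term of that fit therefore rested on replicates 1 and 3 of each genotype. That fit called 3 members higher, Bbs2 being added at 0.398 (edgeR adjusted p = 0.0588), and turned the sign of Spag7 to 0.0201 and of Tctn3 to 0.0955. Without mutant replicate 1, Tctn1 was -0.0103 and Tctn3 0.0111, and without WT replicate 4, Spag7 was 0.0462 and Tctn3 0.104; none of these was called. With 1 library left out, Spag7 ranged over -0.103 to 0.0462, Tctn1 over -0.0103 to 0.258 and Tctn3 over -0.176 to 0.104. The cause was not tested. Of all other log2 fold changes of the named members under these settings, 275 kept their sign and their side of the call, 2 met the call (Bbs2) and 1 lost it (Ift74). The 275 include the settings with an adjusted p under 0.05 and a p under 0.001, which reused the fold changes of the main fit. There no sign could turn and no further member could be called. In the 2 fits that called Bbs2, mutant replicate 2 was left out or did not inform the genotype term. With 3 mice a genotype, changes well under 1.5-fold, as most members showed, are often below what the test calls.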
